A study of Mus musculus with 10 samples.

Results

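The 5 blood libraries of metformin-treated mice were compared with those 3 of the 5 control libraries in which transcripts of red blood cell precursors were the most abundant. The 8 libraries were chosen from all 10 by their value of Alas2, which starts heme synthesis in erythroid cells, which had to be at least 12 on the log2 scale. Alas2 was at 12.48 in each of the 8 chosen libraries, where it was the highest gene, at 8.28 in control 5 and at 1.08 in control 1. These values chose the libraries and are a description. The choice was made after the libraries had been seen, and the p-values below do not allow for it. All mice were C57BL/6, adult by the labels, with no genetic change named. The control group received PBS and the metformin group metformin, the oral drug of type 2 diabetes, and the labels give 30 days for each. The methods give doses for the study's mice, by tail vein injection or by mouth, but tie neither dose nor route to these libraries. RNA was extracted from blood with TRIzol, and the sources name no step that separates blood cells or removes globin transcripts. Each library was taken as 1 mouse, but no label says that the libraries came from separate animals, so the p-values measure the spread between these samples.

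Red blood cell precursors make heme and globin and shut down most other transcription as they mature, so their transcripts dominate RNA of whole blood. Leukocytes are a small share of blood cells but carry most of the other transcripts, and lymphocytes are the commonest leukocytes of mouse blood. In such a bulk sample, fewer cells of a type and less RNA per cell cannot be told apart.

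The deposited values are log2 FPKM, the fragments of each gene scaled by its length and by the library's total, with an offset before the log that is not stated. A difference of 1 on this scale is a doubling at most levels and understates the change of genes near 0. Ranked from low to high, the libraries have almost equal values (largest SD 0.0399 at any rank), so a shift shared by most genes cannot be seen, and the depth is unknown. Across the 4026 genes with a value of at least 1 in 3 or more of the 8 libraries, Pearson correlations were 0.812 to 0.931 between control libraries, 0.847 to 0.974 between metformin libraries and 0.692 to 0.887 between the groups. Of the 50 highest genes, 10 to 11 were on a list of 53 erythroid genes in each of the 8 libraries, 1 in control 5 and 0 in control 1. Myl2, a myosin light chain of heart muscle, was at 12.48 in control 1 and control 5 and at 0.46 to 4.24 elsewhere. These 2 libraries were left out of every comparison below unless named.

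Lower genes outnumbered higher genes in the metformin libraries. With limma and the Benjamini-Hochberg adjustment over all 4026, 422 genes (10.5%) were lower and 214 (5.32%) higher at an adjusted p under 0.05. All 5 metformin values lay below all 3 control values in 561 genes (13.9%) and above them in 368 (9.14%). The median difference over all genes tested was 0.05 on the log2 scale. The shares of 10.5%, 5.32%, 13.9% and 9.14% over all genes belong beside the counts of each list below. Of the lower genes 68 were on lists of leukocyte genes, 24 on that of the cytosolic ribosome, 61 on other lists and 269 on none. Their median difference was -0.93, a 1.9-fold fall on this scale, and 22 fell by at least 2. Of the higher genes 72 were on lists of skeletal or heart muscle genes and 142 were not, which is 3.6% of the 3942 tested genes outside those lists. The 142 had a median difference of 0.78, a 1.72-fold rise on this scale, and 7 rose by at least 2. The filter on low values bears on these counts. Of the lower genes 211 had fewer than 3 metformin libraries at 1 or more, and of the 142 higher genes 112 had fewer than 3 control libraries there, against 771 and 1668 of all genes tested.

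**Figure D1:**
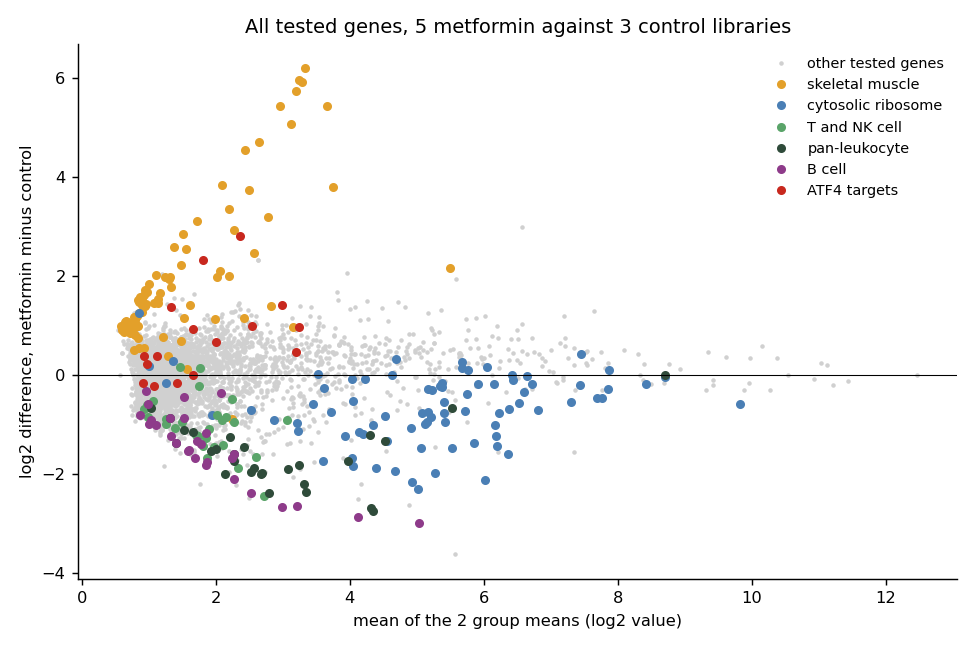
Difference between the groups (vertical axis, log2, metformin minus control) against the mean of both group means (horizontal axis, log2 value) for the 4026 tested genes, 1 point a gene, with 6 gene lists coloured. All but 1 of the skeletal muscle genes lie above 0, and the B cell, T and NK cell and pan-leukocyte genes lie mostly below it. The ribosomal protein genes extend from 0.43 down to -2.30, apart from Rpl3l at 1.26.

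The mean of the B cell list moved with the falls. It was 2.11, 2.84 and 2.99 in controls 2, 3 and 4 and 1.88, 1.19, 0.93, 0.94 and 1.0 in metformin 1 to 5, so it divides the libraries as the groups do. With this mean as a covariate 0 genes were lower and 37 higher at an adjusted p under 0.05 from limma (243 and 154 at an unadjusted p under 0.05), and 397 of the 422 lower genes still had a negative difference. The median difference was then -0.71 for the 422 genes, against -0.93, and 0.98 for the 214 higher genes, against 0.94. With all 10 libraries 110 genes were lower, 100 of them among the 422, and 160 were higher. Any 1 library left out gave 274 to 432 lower genes (274 without metformin 5 and 276 without metformin 4).

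**Figure D2:**
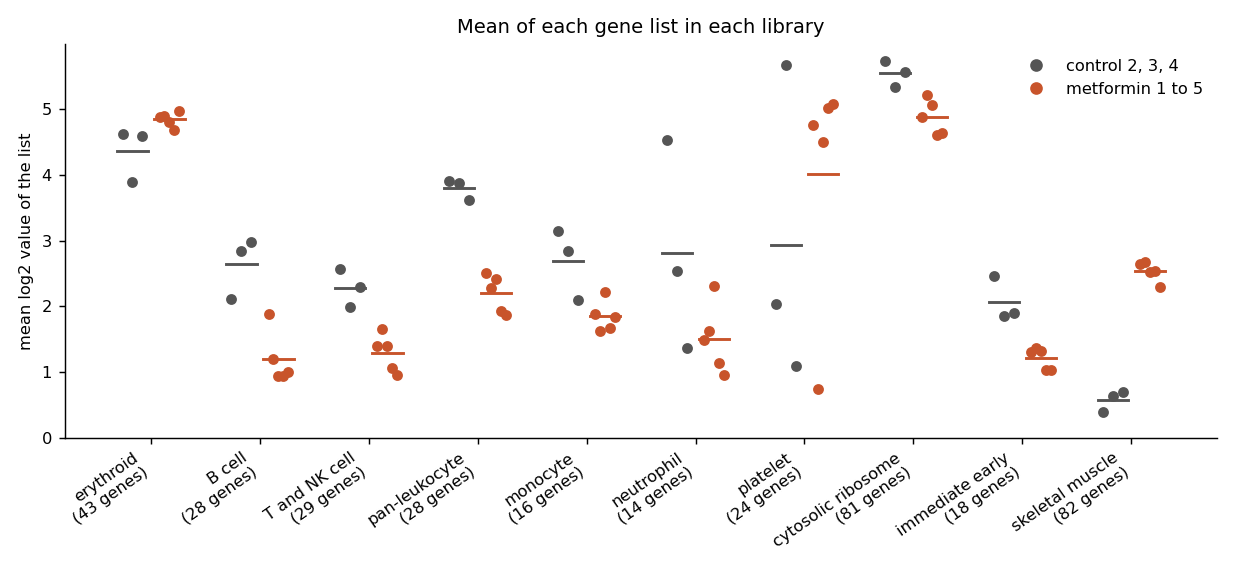
Mean log2 value of the tested genes of 10 lists (vertical axis) in each library, 1 point a library, with a line at each group's mean. The pan-leukocyte, B cell, T and NK cell, immediate early and ribosomal means of the 5 metformin libraries lie below those of the 3 control libraries. The skeletal muscle means lie above, and the monocyte, neutrophil and platelet means overlap.

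The largest falls were in B cell genes. Cd74, the invariant chain that escorts MHC class II molecules in B cells and other antigen-presenting cells, was at 6.77, 7.90 and 7.45 in controls 2, 3 and 4. In metformin 1 to 5 it was at 4.92, 4.60, 3.74, 2.96 and 2.56. The highest metformin value was thus well below the lowest control value, and Cd74 fell by 3.62 (standard error 0.557, adjusted p = 0.00249 from limma), the largest fall of any tested gene. Igkc, the constant part of the immunoglobulin kappa light chain (chromosome 6, 70726435 to 70726966 of GRCm38), was at 5.96, 6.96 and 6.67 in the controls and at 4.65, 4.09, 3.24, 2.79 and 2.96 in the metformin libraries. It fell by 2.99 (adjusted p = 0.00276 from limma). Ighm, the heavy chain of IgM, was at 4.62, 6.06 and 6.00 against 3.60, 3.13, 2.39, 2.22 and 2.16. It fell by 2.86 (adjusted p = 0.00296 from limma), and the groups did not overlap.

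Cd79a and Cd79b, which pass the signal of the B cell receptor into the cell, fell with the immunoglobulins. Cd79b was at 3.73, 4.48 and 4.73 in the controls and at 2.68, 1.75, 0.99, 1.32 and 1.5 in the metformin libraries (-2.66, adjusted p = 0.00197 from limma). Cd79a had a difference of -2.65 (adjusted p = 0.00343 from limma). Ighd, the heavy chain of the IgD of naive B cells, was at 2.57 in metformin 1 and at 0.94 to 1.09 in the other metformin libraries, against 2.74, 4.02 and 4.40 in the controls. Metformin 1 was also the highest metformin library in the mean of the whole list. Ly6d, a surface protein of B lineage cells, fell by 2.49 (adjusted p = 0.00107 from limma). Ms4a1, which encodes CD20, was at 1.78, 2.59 and 3.20 against 1.57, 1.10, 0.52, 0.56 and 0.47 and fell by 1.68 (adjusted p = 0.0104 from limma). For Pax5, the factor that fixes B cell identity, the groups overlapped, with 0.93 in control 2 and 1.08 in metformin 1, and the difference was -0.91 (adjusted p = 0.0346 from limma, a call that ended without any 1 of 6 libraries). Of 31 measured B cell genes 28 passed the filter, and 20 of these were lower and none higher, with 16 without overlap and a median difference of -1.38. Cd37 enters the list under 2 identifiers, and both are among the 20. Of the 28, 15 had fewer than 3 metformin libraries at 1 or more, so the list's count carries the choice of the filter with it. With all 10 libraries 0 B cell genes were lower, and with the erythroid mean as a covariate 7 were.

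T and NK cell genes were lower too. Ccr7, a chemokine receptor that guides naive lymphocytes to lymph nodes, was at 2.77, 2.47 and 2.90 in the controls and at 1.45, 1.33, 1.02, 0.74 and 0.65 in the metformin libraries. The groups did not overlap, and Ccr7 fell by 1.67 (adjusted p = 0.00144 from limma), and Tcf7, a factor of naive T cells, by 1.45 (adjusted p = 0.00646 from limma). Trbc2, a constant part of the T cell receptor beta chain, was at 4.01, 2.78 and 3.51 against 1.51, 2.54, 2.09, 1.36 and 1.37. It fell by 1.66 (adjusted p = 0.0134 from limma), and its call ended without 1 library (adjusted p up to 0.0532). Trac, the alpha chain's constant part, Cd8b1 of cytotoxic T cells and Cd3d of the receptor complex had differences of -1.22, -1.07 and -0.99 (adjusted p 0.0179 to 0.0349 from limma). These calls ended without any 1 of 5 libraries for Trac (adjusted p up to 0.125) and for Cd8b1 (up to 0.0907), and without 1 for Cd3d. Il7r, the receptor of the survival signal interleukin 7, was at 1.85, 1.15 and 1.22 against 0.20 to 0.85 (-0.85, adjusted p = 0.0220 from limma), and its call ended without any 1 of 3 libraries.

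In all 19 of 29 tested T and NK cell genes were lower, none was higher, and the median difference was -0.94, with 11 of the 29 carried through the filter by the controls. Leaving out any 1 library gave 10 to 21 lower genes (10 without control 2 and 11 without control 4), and with all 10 libraries 1 was lower. Of 8 Gimap genes, GTPases of the immune system with roles in lymphocyte survival, 6 were lower and none higher. Their list was written after the values had been seen, and 3 of the 8 were carried through the filter by the controls. Gimap1, Gimap3, Gimap4 and Gimap6 are also counted among the lower T and NK cell genes. Gimap6 was at 2.59, 2.79 and 2.85 against 1.55 to 2.19 (-0.95, adjusted p = 0.0153 from limma). The mean of the B cell list minus that of the T and NK cell list was -0.45, 0.85 and 0.70 in the controls and 0.49, -0.47, -0.46, -0.11 and 0.05 in the metformin libraries. The balance of both lists thus overlapped between the groups.

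Genes shared by most leukocytes were lower in nearly all cases. Of 28 pan-leukocyte genes 24 were lower, none was higher and the median difference was -1.65, and 4 of the 28 had fewer than 3 metformin libraries at 1 or more. The 24 hold Cd37 under each of its 2 identifiers. With all 10 libraries 4 were lower. Their mean was 3.62 to 3.91 in the controls and 1.86 to 2.51 in the metformin libraries. Coro1a, an actin-binding coronin of leukocytes, was at 5.89, 5.72 and 5.35 in the controls. In the metformin libraries it was at 3.28, 3.96, 3.22, 2.24 and 2.19, and it fell by 2.68 (adjusted p = 0.00300 from limma). Ly6e, an interferon-induced surface protein (chromosome 15, 74955051 to 74959905), was at 5.50, 5.92 and 5.71 against 3.61, 3.68, 3.17, 2.43 and 1.99. It fell by 2.74 (adjusted p = 0.00249 from limma). Metformin 4 and 5 were the lowest libraries in both genes, as they were in the mean of the list. Ltb, a membrane partner of lymphotoxin, Lsp1, a leukocyte actin-binding protein, and Cd52 fell by 2.38, 2.36 and 2.21 (adjusted p 0.00212 to 0.00821 from limma). Ptprc, which encodes CD45, was at 3.34, 3.47 and 3.71 against 2.15, 2.29, 1.72, 1.27 and 0.75 and fell by 1.87 (adjusted p = 0.00618 from limma). Ptpn6, the phosphatase that dampens antigen receptor signals, fell by 1.92 (adjusted p = 0.00177 from limma).

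**Figure D3:**
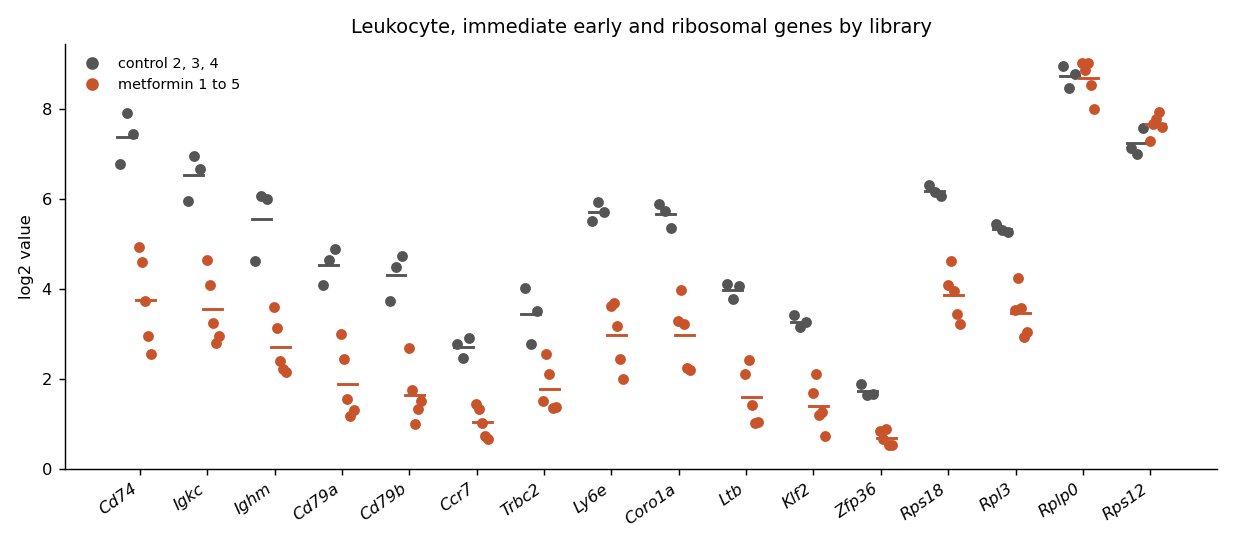
Log2 values (vertical axis) of 16 genes in controls 2 to 4 (grey) and metformin 1 to 5 (orange), 1 point a library with a line at each group's mean. The groups do not overlap in Cd74, Igkc, Ighm, Ccr7, Ly6e, Coro1a or Rps18, whereas they overlap in Rplp0 and Rps12, ribosomal genes that did not pass the test.

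Myeloid genes varied more among the controls. Of 16 monocyte genes 6 were lower (37.5%, against 10.5% of all genes) and none higher, with a median difference of -0.83. Of the 16, 5 were carried through the filter by the controls, and 2 had a positive difference. The list mean was 2.093 to 3.142 in the controls and 1.625 to 2.217 in the metformin libraries, so the groups overlapped. Ctss, a lysosomal protease of antigen-presenting cells, was at 3.52, 3.21 and 3.37 in the controls and at 2.07, 1.54, 1.97, 1.02 and 1.18 in the metformin libraries (-1.81, adjusted p = 0.00264 from limma). Spi1, which encodes the myeloid and B cell factor PU.1, fell by 1.62 (adjusted p = 0.00618 from limma). Irf8, a factor of monocytes, dendritic cells and B cells, had a difference of -1.17 (adjusted p = 0.0217 from limma). The chemokine Ccl6 was at 4.48, 3.22 and 2.52 against 0.58 to 2.06 and fell by 2.22 (adjusted p = 0.00879 from limma). None of the 14 tested neutrophil genes passed limma in either direction (6 were lower and 0 higher at an unadjusted p under 0.05), and their median difference was -1.23. S100a9, a subunit of the neutrophil protein calprotectin, was at 8.53, 6.29 and 3.78 in the controls and at 3.88, 4.13, 4.85, 2.68 and 2.33 in the metformin libraries. Control 4 lay within the metformin range, and the difference of -2.63 did not pass (adjusted p = 0.0873 from limma). S100a8 and Retnlg had differences of -2.19 and -1.59 and did not pass (adjusted p = 0.158 and 0.197 from limma).

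Platelet genes divided the libraries in another way. The mean of 24 platelet genes was 5.67 in control 3 and 4.51 to 5.08 in metformin 1, 3, 4 and 5, against 2.03 and 1.09 in controls 2 and 4 and 0.74 in metformin 2. Pf4, platelet factor 4, was at 7.97 in control 3 and at 1.07 in metformin 2, and its difference of 1.26 did not pass (adjusted p = 0.607 from limma). None of the 24 passed limma, also at an unadjusted p under 0.05, and the median difference was 1.11. The endothelial list, which shares Vwf with it, was at 2.82 in control 3 and at 1.16 in metformin 2.

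Many genes of the cell machinery that leukocytes use to move and to make oxidants were lower, and some of them are counted above. The lists of small GTPase regulators, Gimap genes, the NADPH oxidase, chemokine receptors and endocytic proteases were written after the values had been seen. Of 30 genes of the actin cytoskeleton 20 were lower, with a median difference of -0.92. Rac2, Coro1a, Lcp1, Tmsb10, Vim and Arhgdib are also counted among the lower pan-leukocyte genes, and Arhgdib again among the GTPase regulators. In the lists that follow, Cybb and Ctss are also lower monocyte genes and Ccr7 and Klf2 lower T and NK cell genes. Psmb8 and Psmb9 are also lower pan-leukocyte genes. Msn, which encodes moesin and links actin to the membrane, was at 3.22, 3.42 and 3.43 against 2.05, 1.52, 1.77, 1.91 and 1.54 (-1.60, adjusted p = 0.00131 from limma). The formin Fmnl1 had a difference of -1.32 (adjusted p = 0.00279 from limma) and the actin monomer binder Pfn1, profilin, one of -1.45 (adjusted p = 0.00897 from limma). Actb, beta-actin, was at 6.91, 7.70 and 6.36 against 5.31, 5.03, 5.28, 5.38 and 6.17, without overlap, and its difference was -1.55 (adjusted p = 0.0182 from limma, up to 0.0540 without 1 library). Rac2, a small GTPase of blood cells, fell by 1.74 (adjusted p = 0.00218 from limma). Of 19 regulators of such GTPases, 11 of them carried through the filter by the controls, 12 were lower, among them Dock2, an activator of Rac in lymphocytes (-1.01, adjusted p = 0.0120 from limma).

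Of 6 genes of the phagocyte NADPH oxidase and its proton channel, 3 of them carried through the filter by the controls, 5 were lower. Cybb, the catalytic subunit, was at 1.77, 1.90 and 1.62 in the controls and at 0.87, 0.73, 0.57, 0.38 and 0.23 in the metformin libraries (-1.21, adjusted p = 0.00161 from limma). Its partner Cyba and the cytosolic subunit Ncf1 had differences of -1.33 and -1.14 (adjusted p = 0.0149 and 0.0101 from limma). The channel Hvcn1, also expressed in B cells, had one of -1.50 (adjusted p = 0.00188 from limma). The chemokine receptors Ccr7, Cxcr5 of follicular B cells (-1.10, adjusted p = 0.00848 from limma) and Cxcr4, the receptor that holds cells in bone marrow (-1.47, adjusted p = 0.0200 from limma), were the 3 tested and were all lower. Cxcr4 was at 3.64, 2.83 and 2.04 against 0.94 to 1.94, and its call ended without any 1 of 3 libraries.

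Of 12 tested genes of MHC class I presentation 5 were lower, and of 12 cathepsins and other genes of antigen processing 6 were, with none higher on either list. Tapbp, tapasin, which loads peptides onto MHC class I molecules, was at 3.02, 2.85 and 3.64 against 1.64, 1.44, 1.69, 1.24 and 1.26 (-1.71, adjusted p = 0.00144 from limma). The immunoproteasome subunits Psmb8, Psmb9 and Psmb10 fell by 1.45, 1.14 and 0.70 (adjusted p 0.0180 to 0.0273 from limma), and no other proteasome gene among 41 was lower. In contrast B2m, the light chain of MHC class I, was at 6.64, 8.77 and 6.32 against 5.47 to 8.77 and did not pass (0.21, adjusted p = 0.858 from limma). Ifi30, Ctsh and Napsa, a thiol reductase and proteases of the endocytic route, each had a difference of -1.40 (adjusted p 0.00276 to 0.00610 from limma). Unc93b1, which delivers nucleic acid sensing Toll-like receptors to endosomes, fell by 1.63 (adjusted p = 0.00240 from limma).

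Immediate early genes were lower in part. Of 18 tested genes 13 were lower and none higher, with a median difference of -1.02, and 12 of the 18 were carried through the filter by the controls. Klf2, which keeps naive lymphocytes quiescent, was at 3.42, 3.14 and 3.25 in the controls and at 1.69, 2.10, 1.19, 1.27 and 0.73 in the metformin libraries (-1.88, adjusted p = 0.00276 from limma). Zfp36, which speeds the decay of cytokine mRNAs, was at 1.89, 1.65 and 1.65 against 0.84, 0.66, 0.87, 0.52 and 0.52 (-1.05, adjusted p = 0.00152 from limma). Btg1, an antiproliferative gene of resting lymphocytes on no list, fell by 1.33 (adjusted p = 0.00106 from limma), and its relative Btg2 by 1.09 (adjusted p = 0.00360 from limma). Junb and Nfkbia, fast targets of growth and NF-kB signals, had differences of -1.26 and -0.98 (adjusted p = 0.0180 and 0.0201 from limma). Fos and Dusp1, the first genes that handling or stress induces, did not pass. Dusp1 was at 3.70 in control 2 and at 1.57 and 0.83 in controls 3 and 4, the last within the metformin range of 0.77 to 1.46 (-1.05, adjusted p = 0.207 from limma). Fos was at 1.97, 0.77 and 0.44 against 0.35 to 1.18 (-0.35, adjusted p = 0.502 from limma).

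Ribosomal protein genes were lower in part. Each encodes 1 protein of the small or large subunit of the cytosolic ribosome, and in most tissues they are expressed in step. Rps18 (chromosome 17, 33951999 to 33956001), of the small subunit, was at 6.30, 6.14 and 6.06 in the controls and at 4.09, 4.61, 3.95, 3.45 and 3.22 in the metformin libraries. It fell by 2.30 (standard error 0.352, adjusted p = 0.00247 from limma). Rpl3, at the core of the large subunit, was at 5.44, 5.30 and 5.26 against 3.52, 4.23, 3.56, 2.92 and 3.03 and fell by 1.88 (adjusted p = 0.00549 from limma). Metformin 2 was the highest of its group in both, and metformin 4 and 5 were the lowest.

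Other ribosomal genes stayed near the controls. Rplp0, of the stalk of the large subunit, was at 8.95, 8.46 and 8.77 in the controls and at 9.02, 8.87, 9.02, 8.53 and 8.0 in the metformin libraries (-0.04, adjusted p = 0.927 from limma). Rps15a differed by 0.00 (adjusted p = 0.998 from limma), and Rps12 was at 6.99 to 7.57 against 7.29 to 7.94 (0.43, adjusted p = 0.224 from limma). Of 81 tested genes 24 were lower (29.6%, against 10.5% of all genes), and 28 lay within 0.3 of 0. In 38 all metformin values lay below all control values, as they did in 13.9% of all genes. The median difference was -0.59, at -0.74 for 32 genes of the small subunit (10 lower) and -0.30 for 49 of the large one (14 lower). With each library centred on the mean of the ribosomal list, which removes that shift by construction, 14 ribosomal genes were still lower, the median difference of all genes was 0.71, and the counts over all genes turned to 1763 higher and 92 lower. Without control 2 the number of lower ribosomal genes was 10, and without metformin 5 it was 14. Reads of these genes can also match their processed pseudogenes, and how the counting treated such reads is not stated. The exception on the list was Rpl3l, a form of Rpl3 made in striated muscle, which was at 0.11, 0.28 and 0.27 against 1.17 to 1.69 and rose by 1.26 (adjusted p = 0.000675 from limma). It is counted with the muscle genes.

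**Figure D4:**
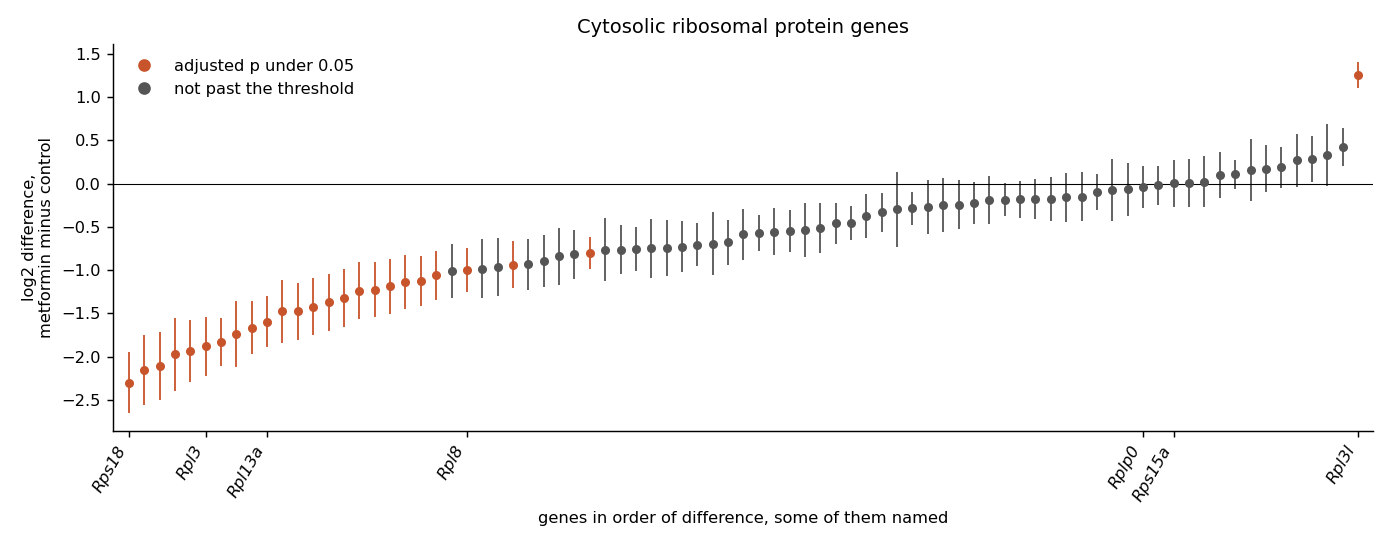
Difference between the groups (vertical axis, log2, metformin minus control) of the 81 tested ribosomal protein genes in order of size, with bars of 1 standard error from limma. Orange points passed an adjusted p under 0.05, 24 of them below 0 and Rpl3l above it, and the highest of the other genes is at 0.43.

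Translation factors were lower for some members. Of 38 tested 7 were lower (18.4%, against 10.5% of all genes). They were led by Eef1a1, the factor that brings tRNAs to the ribosome, at 8.06, 8.21 and 8.09 against 6.86, 6.93, 6.51, 6.47 and 6.08 (-1.55, adjusted p = 0.00245 from limma). Npm1, a nucleolar chaperone of ribosome assembly, had a difference of -1.35 (adjusted p = 0.0103 from limma). Eif1, which guards the choice of start codon, was the exception and rose, from 6.48, 6.65 and 6.65 to 7.48, 7.64, 8.06, 8.14 and 7.67 (1.20, adjusted p = 0.00505 from limma). Pabpc1, the poly(A)-binding protein, did not pass (-0.15, adjusted p = 0.598 from limma). None of 41 genes of the mitochondrial ribosome passed in either direction in limma (at an unadjusted p under 0.05 there were 4 higher and 2 lower), and their median difference was 0.14.

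Among the remaining lower genes were parts of RNA processing and protein folding. Of 40 splicing genes 9 were lower (22.5%, against 10.5% of all genes), with Hnrnpf at 3.25, 3.69 and 4.01 against 1.80 to 2.51 (-1.59, adjusted p = 0.00360 from limma). Of 31 chaperone genes 6 were lower (19.4%, against 10.5%). Among them were Hspa8, the constitutive form of Hsp70 (-1.54, adjusted p = 0.0249 from limma), whose call ended without any 1 of 5 libraries, and the chaperonin subunit Cct4 (-1.12, adjusted p = 0.00812 from limma). The next genes were chosen after their values were seen. Ets1, a factor of resting lymphocytes, was at 2.54, 2.91 and 3.92 against 0.60 to 1.41 (-1.95, adjusted p = 0.00343 from limma). Samhd1, which depletes nucleotides and limits retroviruses, was at 3.20, 3.15 and 3.17 against 1.92, 1.89, 1.90, 1.64 and 1.47 (-1.41, adjusted p = 0.00177 from limma). Tsc22d3, a glucocorticoid-induced gene, and Txnip, an inhibitor of thioredoxin that also restrains glucose uptake, had differences of -1.34 and -1.15 (adjusted p = 0.00924 and 0.0198 from limma). Shisa5 of the endoplasmic reticulum was among the 15 largest falls (-2.50, adjusted p = 0.00296 from limma).

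The higher genes outside muscle were seen against a rise of muscle transcripts in the same libraries. Of 82 tested skeletal muscle genes 72 were higher and none lower, with list means of 0.40 to 0.69 in the controls and 2.30 to 2.67 in the metformin libraries. Acta1, skeletal actin, and the fast troponin Tnnt3 led with 5.93 and 6.20. The part of muscle in the 142 other higher genes was not tested, but some of them are known from muscle or from the tissue around it. Control 1 and control 5, in which Myl2 of the heart was high, give a measure that the comparison did not use. In 55 of the 142 genes (38.7%) both of these libraries lay above controls 2 to 4, in 57 both lay below, and in 30 neither held. Over all genes tested both lay above in 22.5% and below in 38.0%, and of the 72 higher genes on muscle lists both lay above in 55 (76.4%).

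Genes of amino acid and folate metabolism that the transcription factor ATF4 controls were among the rises outside muscle. ATF4 is made when amino acids run short, mitochondria are impaired or proteins misfold, because eIF2 is then phosphorylated and translation of the Atf4 mRNA increases. It switches on amino acid synthesis, tRNA charging and mitochondrial one-carbon metabolism through sites with the core TGATGNAA. Mthfd2, the mitochondrial folate enzyme that passes one-carbon units from serine on to formate (chromosome 6, 83305691 to 83325908), was at 1.08, 0.67 and 1.10 in the controls. In the metformin libraries it was at 3.76, 3.84, 4.69, 3.72 and 2.83, and in control 1 and control 5 it was at 0.25 and 0.37. Each metformin library was thus above each of the 5 controls, and Mthfd2 rose by 2.81 (standard error 0.370, adjusted p = 0.00117 from limma).

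Atf5, a related factor induced by ATF4, was at 0.54, 0.87 and 0.51 against 2.53, 3.08, 4.08, 2.79 and 2.39 and rose by 2.33 (adjusted p = 0.00249 from limma). Metformin 3 was the highest library in both genes. Atf5 is also expressed in other tissues and was at 2.17 and 1.58 in control 1 and control 5, unlike Mthfd2. Atf4 itself was at 2.18, 2.64 and 2.04 against 3.90, 3.64, 3.66, 3.25 and 4.04 and rose by 1.41 (adjusted p = 0.00812 from limma). Asns, which makes asparagine, was at 1.02, 0.52 and 0.40 against 2.09, 1.98, 2.19, 1.75 and 2.10 and rose by 1.37 (adjusted p = 0.00144 from limma). Pck2, which makes phosphoenolpyruvate in mitochondria, was at 1.42, 1.01 and 1.17 against 2.06, 2.36, 2.21, 2.05 and 1.95 and rose by 0.93 (adjusted p = 0.00806 from limma). The groups did not overlap in any of these 5 genes, and each call held without any 1 library.

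The other members of the list were less clear. Of 16 tested ATF4 targets these 5 were higher and none was lower, with a median difference of 0.57, and 3 of the 5 had fewer than 3 control libraries at 1 or more. The number of higher targets was 0 with the B cell mean as a covariate and 3 with the replicate number as a block. It was 4 with the erythroid mean, 5 with the neutrophil mean and 8 with the platelet mean as a covariate. The amino acid transporter pair Slc7a5 and Slc3a2 had differences of 0.99 and 0.97 and did not pass (adjusted p = 0.0602 and 0.0790 from limma). Slc7a5 was at 1.96, 1.59 and 2.57 against 2.91, 3.30, 3.29, 3.29 and 2.35, where only metformin 5 overlapped the controls. Nars, the tRNA synthetase of asparagine, was at 1.32 to 1.92 against 2.07 to 2.46 and missed the threshold (0.68, adjusted p = 0.0537 from limma). Ddit3, the stress factor CHOP, was at 1.10, 1.0 and 0.65 against 0.70 to 1.63 (0.39, adjusted p = 0.257 from limma). In the folate pathway Shmt2, which feeds Mthfd2, and Phgdh, which starts serine synthesis, had differences of 0.39 and -0.16 (adjusted p = 0.228 and 0.564 from limma).

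Promoter sequence was examined because these genes moved together. In windows from 250 bases before to 50 after each gene's start, from RefSeq on GRCm38.p6, TGATGNAA on either strand occurred at 1219 of 27025 genes (4.51%) and in 15 of 37 ATF4 targets with a window (40.5%). The 37 were listed as targets whether or not they were tested here, so their share does not describe these data. Among the 14 tested targets with a window 4 held it (28.6%). Of the 5 higher members Asns and Pck2 held it. The stretches around both matches are shown 5′ to 3′ on the gene's strand, with the match in capitals, from chr6:7693210-7693258 (minus strand) and chr14:55540137-55540196 (plus strand).
Asns: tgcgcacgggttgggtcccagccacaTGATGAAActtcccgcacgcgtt
Pck2: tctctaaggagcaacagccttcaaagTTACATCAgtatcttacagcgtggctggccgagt
The first base of the match lies 23 bases from the RefSeq start of Asns and 103 from that of Pck2, where the motif reads on the opposite strand. In the GENCODE annotation, used for the other positions given here, Asns starts at 7693254, so there the match lies inside the gene. A match is a description of the letters, and Mthfd2, Atf5 and Atf4 have none in this window.

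Erythroid genes were close to the controls at the top and higher for some members of middle and low level. Bpgm, which makes the hemoglobin regulator 2,3-bisphosphoglycerate in red cells, was at 10.87 to 11.17 in the controls, a range that only metformin 1 and 5 exceeded, at 11.50 and 11.31 (0.22, adjusted p = 0.212 from limma), and at 0.87 and 6.36 in control 1 and control 5. Of 43 tested erythroid genes 7 were higher and none lower, that is 16.3% against 5.32% of all genes, with a median difference of 0.46. This count was 0 with the B cell mean as a covariate or at an adjusted p under 0.01, 1 with the neutrophil mean and 18 with the platelet mean. It also carries the choice of the filter. The higher members Gata1, Tfrc, Dmtn and Cpox had fewer than 3 control libraries at 1 or more and passed it through the metformin libraries. The list mean was 4.62, 3.89 and 4.60 in the controls, where control 3 was lowest, and 4.68 to 4.97 in the metformin libraries. Gata1, the master factor of the lineage, was at 1.07, 1.53 and 0.94 against 1.86, 1.94, 2.21, 2.05 and 2.13 (0.86, adjusted p = 0.0138 from limma). Tfrc, the transferrin receptor that brings in iron, was at 1.09, 0.56 and 0.86 against 1.66, 1.47, 1.57, 1.29 and 2.12 (0.79, adjusted p = 0.0311 from limma). Ank1, the ankyrin of the red cell membrane, rose by 1.31 (adjusted p = 0.0138 from limma), and control 1 and control 5 (2.37 and 2.68) were also above controls 2 to 4. Leaving out control 2, control 3 or metformin 1 left 4 higher erythroid genes.

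Several higher genes on no list are also known from red cell precursors and were chosen after their values were seen. Slc6a9, the glycine transporter that supplies heme synthesis, was at 0.99, 0.80 and 0.80 against 1.33, 2.25, 1.84, 1.64 and 1.48 (0.84, adjusted p = 0.0240 from limma). Redrum, a long noncoding RNA of erythroid cells, was at 0.65, 0.21 and 0.52 against 1.16, 1.19, 1.46, 1.06 and 1.21 (0.76, adjusted p = 0.00845 from limma) and at 0.03 and 0.01 in control 1 and control 5. Apol11b, an apolipoprotein L gene, was at 7.29, 6.20 and 7.48 against 8.46, 8.28, 7.97, 7.64 and 9.11 (1.30, adjusted p = 0.0389 from limma). Its relative Apol10a had a difference of 1.21 (adjusted p = 0.0443 from limma), and these calls ended without any 1 of 6 or 7 libraries. Slc6a9, Redrum and Apol10a had fewer than 3 control libraries at 1 or more and passed the filter through the metformin libraries.

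Of 25 genes of autophagy and mitophagy, 3 were higher, against 5.32% of all genes, and Uvrag alone was lower, against 10.5% of all genes. Wipi1, an early protein of the forming autophagosome, was at 1.73, 1.10 and 1.93 against 2.86, 3.06, 3.42, 2.50 and 2.50 (1.28, adjusted p = 0.0158 from limma), and its call held without any 1 library. Optn, a receptor for damaged mitochondria, and Atg12, part of the conjugation system, had differences of 0.74 and 0.68 (adjusted p = 0.0380 and 0.0396 from limma), and each of these calls ended without any 1 of 7 libraries. Sar1b and Sec23a, of the coat that carries proteins out of the endoplasmic reticulum, rose by 0.93 and 0.85 (adjusted p = 0.00471 and 0.0184 from limma). Sar1b was at 1.18, 1.08 and 0.76 against 1.81 to 2.05. Both were chosen after their values were seen.

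**Figure D5:**
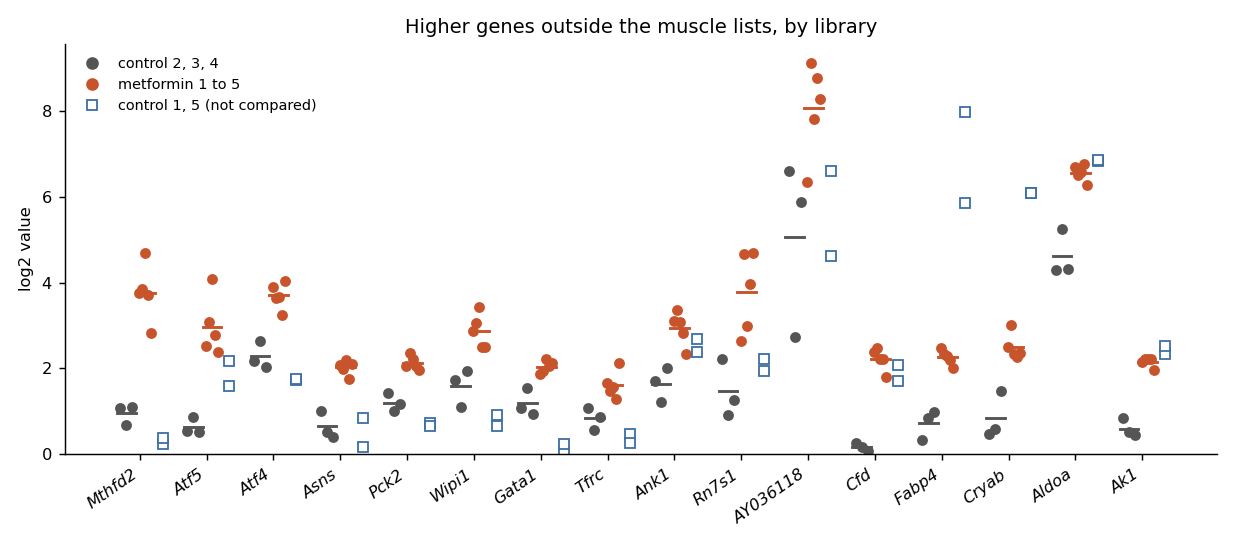
Log2 values (vertical axis) of 16 higher genes outside the muscle lists in controls 2 to 4 (grey) and metformin 1 to 5 (orange), with a line at each group's mean, and in control 1 and control 5 (open squares), which were not compared. Both open squares lie below controls 2 to 4 for Mthfd2, Pck2, Gata1 and Tfrc and above them for Fabp4, Cryab and Aldoa.

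Noncoding RNAs of the ribosome and the signal recognition particle were higher, most of all in metformin 2, 4 and 5. Rn7s1 and Rn7s2, copies of the 7SL RNA of the signal recognition particle on chromosome 12, are 300 bases long and identical, so their reads cannot be told apart and their values were the same. Each was at 2.21, 0.92 and 1.26 against 2.63, 4.66, 2.99, 3.96 and 4.69 (2.32, adjusted p = 0.0156 from limma). AY036118 was at 6.59, 2.73 and 5.88 in the controls and at 6.34, 9.11, 7.82, 8.77 and 8.28 in the metformin libraries (2.99, adjusted p = 0.0396 from limma). Metformin 1 lay between controls 2 and 4, and the call ended without any 1 of 6 libraries. AY036118 is annotated as a noncoding RNA of 923 bases (chr17:39847113-39848035, minus strand) and lies inside a ribosomal RNA gene of the same annotation, with all 893 of its 31-base words found in the transcript of that gene, so reads of that ribosomal RNA match it. Lars2, the mitochondrial leucine tRNA synthetase, was at 3.69, 1.88 and 3.21 against 3.65, 5.92, 4.36, 5.07 and 6.01 (2.07, adjusted p = 0.0438 from limma) and shares 0 such words with it. Its call ended without any 1 of 7 libraries. The first 60 bases of AY036118 are shown because they are also bases 167 to 226 of the ribosomal RNA transcript.
AY036118: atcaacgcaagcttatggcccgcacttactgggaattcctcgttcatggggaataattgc
In these 4 genes metformin 1 was the lowest metformin library and control 3 the lowest control. With the B cell mean as a covariate the difference of AY036118 turned to -0.17.

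Some of the other higher genes are known from fat, stroma or muscle. Cfd, the complement factor adipsin of fat cells, was at 0.25, 0.16 and 0.08 in the controls and at 2.38, 2.47, 2.21, 2.21 and 1.80 in the metformin libraries (2.05, adjusted p = 7.1e-05 from limma). Fabp4, the fatty acid carrier of fat and capillary endothelium, was at 0.33, 0.85 and 0.98 against 2.46, 2.34, 2.28, 2.18 and 2.02 (1.53, adjusted p = 0.00107 from limma). Control 1 and control 5 held more of it still, at 7.97 and 5.85, and with all 10 libraries the difference turned to -0.94. Cryab, a small heat shock protein of lens and muscle, and the antioxidant enzyme Gpx3 showed the same order, with differences of 1.65 and 1.07 (adjusted p = 0.00335 and 0.00188 from limma) that turned to -0.45 and -1.22. Dcn, the collagen-binding protein decorin, had a difference of 0.63 (adjusted p = 0.00579 from limma), which turned to -0.57. H19, a noncoding RNA of fetal tissue and adult muscle, was at 0.11, 0.17 and 0.23 against 1.06 to 2.04 (1.28, adjusted p = 0.00305 from limma).

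Enzymes of energy metabolism rose mostly in forms known from muscle. Aldoa, the aldolase of muscle and red cells, was at 4.28, 5.25 and 4.31 against 6.69, 6.51, 6.57, 6.76 and 6.27 (1.94, adjusted p = 0.00249 from limma), and at 6.82 and 6.84 in control 1 and control 5. Pgm1, which links glycogen to glycolysis, was at 0.60, 0.44 and 0.58 against 1.85 to 2.10 (1.45, adjusted p = 0.000144 from limma). Ak1, the adenylate kinase of muscle and red cells, rose by 1.55 (adjusted p = 0.000255 from limma), and Adssl1, the muscle form of a purine enzyme, by 1.23 (adjusted p = 0.00534 from limma). Of 21 glycolytic genes 5 were higher (23.8%, against 5.32% of all genes) and 2 lower (9.52%, against 10.5%). Of the higher ones Eno3, Pgam2 and Pfkm are on the muscle list. The enolase Eno1 and the isomerase Gpi1, expressed in most cells, were lower (-1.09 and -0.88, adjusted p = 0.0429 and 0.0479 from limma), and these calls ended without any 1 of 6 or 7 libraries. Gapdh was at 4.09, 4.95 and 5.18 in the controls and at 5.52 to 5.95 in the metformin libraries, without overlap. Its difference of 0.96 did not pass (adjusted p = 0.0616 from limma), and it was at 8.66 and 8.61 in control 1 and control 5.

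Of 42 genes of respiratory complexes II to V, 4 were higher (9.52%, against 5.32% of all genes). Of these Cox6a2, Cox7a1 and Cox8b are forms of cytochrome oxidase subunits made in heart and skeletal muscle. The fourth was Atp5g1, a subunit of the ATP synthase, at 1.83, 1.23 and 2.01 against 2.72 to 3.58 (1.35, adjusted p = 0.0102 from limma). Of 36 complex I genes Ndufc1 and Ndufa11 (5.56%, against 5.32% of all genes) were higher, by 1.08 and 0.48 (adjusted p = 0.0436 and 0.0479 from limma), and the median difference was 0.39. Calls of both ended without any 1 of 7 libraries. These 6 genes were all negative when all 10 libraries were compared. Pdk4 and Pdk2, kinases that restrain entry of pyruvate into the citric acid cycle, had differences of 0.72 and 0.80 (adjusted p = 0.00462 and 0.00578 from limma), and of 22 citric acid cycle genes Idh3a alone (4.55%) was higher (0.65, adjusted p = 0.00954 from limma).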

How the data were processed

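Blood libraries of 5 metformin and 5 control mice were deposited in 1 table, of which 8 columns were compared. The authors aligned reads to GRCm38 and computed FPKM with TopHat2 and Cufflinks, as their processing notes name them, and deposited log2 values. How library and strand were handled is not stated, and the libraries look quantile normalized, a step the methods do not mention. Of 8904 genes 8899 matched the GENCODE annotation of GRCm38 used for names and positions (207 symbols differed), and Cd37 occurs under 2 identifiers.

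Genes at a log2 value of 1 or more in 3 of 8 libraries were fitted by limma 3.58.1 (R 4.3.3, eBayes with trend), with no fold limit and p-values adjusted over the 4026 genes. The methods name no test. The fit was tested on simulated data. The members and the 32 gene lists, 7 added lists and tests were chosen with earlier results of these data known. Named were genes that passed without overlap, namely the 15 largest falls and the 15 largest rises outside muscle, up to 4 members of each list by p (muscle lists 2), Alas2, Bpgm, Cd74 and Mthfd2, whether or not they passed. Other genes were chosen after their values were seen, and some genes that the rule names are not reported here. Lists are described by counts, with no set test. With 56 arrangements the smallest exact permutation p was 0.0179. The alternatives were another pseudocount (0.1, with an assumed offset of 1), other filters, centrings and thresholds, eBayes settings, library weights, each library left out, all 10 libraries, a replicate block, and B cell, neutrophil or erythroid means as covariates. After seeing the data, a platelet covariate and leaving out muscle genes before the fit were added.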

Additional observations from a re-analysis of the deposited data

Results flagged for a closer look

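Of 213 sets of 5 metformin values checked, 15 held 1 library far from the other 4, where chance gives about 1 in 20. Among genes these were Ighd in metformin 1 (2.57), Limd2 and Klf6 in metformin 4 (1.79 and 0.50), Junb in metformin 4 (0.62), Tnnt3 and Trim63 in metformin 5 (5.87 and 0.77), and Atg12, Sec23a and Pcx in metformin 2 (2.46, 2.32 and 1.18). Among list means they were that of B cells in metformin 1 (1.88). In metformin 2 they were those of platelets (0.74), endothelium (1.16), respiratory complexes II to V (3.83), chaperones (2.26) and the actin cytoskeleton (2.52). Metformin 2 was the lowest library of its group in the platelet, endothelial and actin means and the highest in those of complexes II to V and the chaperones. Outside the comparison, Myl2 was at 12.48 in control 1 and control 5, against 0.46 to 4.24 in the other libraries.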

How the results depend on the processing

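The reported counts, 422 lower, 214 higher and 142 higher outside muscle, moved by more than 1.5 times as follows. The filter of 2 in 3 libraries gave 170, 89 and 54, and that of 1 in 5 libraries gave 239 lower. Centring on the ribosome gave 92, 1763 and 1683. The neutrophil mean as a covariate gave 194, 112 and 48, the B cell mean 0, 37 and 3 (243 lower and 154 higher at an unadjusted p under 0.05 from limma), and the erythroid mean 145 lower and 88 outside muscle. The platelet mean, added later, gave 468 higher and 394 outside muscle. All 10 libraries gave 110 lower. Muscle genes left out before the fit, also added later, gave 123 higher, to be set against the 142, since the 72 on muscle lists are then removed by construction. An adjusted p under 0.01 gave 150, 99 and 32, and a change of at least 1 gave 182, 96 and 35. Leaving out 1 library gave 274 to 432 lower, 143 to 227 higher and 76 to 154 outside muscle, where the counts were 76 without control 2, 91 without control 4, and 87, 85 and 82 without metformin 3, 4 and 5. The causes were not tested.

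Replicate numbers were not used as pairs in the main fit. Deviations from the group means correlated at 0.425, 0.154 and -0.436 across genes for numbers 2, 3 and 4. Unlike numbers correlated at -0.802 to 0.683, a wider range, so these values cannot decide whether the mice were paired. With the replicate number as a block, which can use only the shared numbers, 135 genes were lower, 93 higher and 30 higher outside muscle, with 0 erythroid genes among the higher.

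Among 183 genes checked, all of them called except Bpgm, 21 reversals of sign were found. With the B cell covariate these were Ighd (0.15), Ms4a1 (0.17), Irf8 (0.10), Pax5 (0.19) and AY036118 (-0.17), of which Ighd, Ms4a1 and Pax5 are members of the list behind the covariate, and with ribosome centring Uba2 (0.14). With all 10 libraries they were Cryab (-0.45), Fabp4 (-0.94), Atp5g1 (-0.59), Pde4dip (-0.78), Rpl3l (-0.28), Trim54 (-0.055), Ndufc1 (-0.86), Ndufa11 (-0.49), Cox8b (-0.74), Cox6a2 (-1.37), Cox7a1 (-1.27), Dcn (-0.57), Gpx3 (-1.22), Hspb1 (-0.10) and Dmpk (-1.29). Median centring, eBayes without trend and robust eBayes each ended the calls of 4 or 5 of the 183 genes. The B cell, erythroid and neutrophil means as covariates ended 167, 90 and 80 calls, all 10 libraries 101 and the replicate block 95. The depth of the libraries is unknown, so what it limits could not be measured.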
